A study of Mus musculus with 6 samples.

Results

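Heat shock and DnaJ chaperone genes were followed across the mouse brain at 3 ages. The genes were taken by a rule on symbols: every measured gene whose symbol begins with Hsp followed by a, b, d, e, h or a digit, or with Dnaja, Dnajb or Dnajc, except Hspg2, which encodes the matrix proteoglycan perlecan, and Hspbap1. This gave 67 of the 19465 genes in all 6 count matrices. Of these, 55 had a UMI (a unique molecular identifier, which marks a captured molecule) in at least 10% of all spots and were tested, and 12 were below that level. Hspa8, Hsp90ab1, Dnaja3, Dnajc19, Dnajc8 and Dnajc17 were not among the genes in the count matrices and could not be analysed.

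The data were Visium spatial transcriptomes of formalin-fixed, paraffin-embedded coronal brain sections, in which probe pairs to each transcript are captured on barcoded spots that each cover several cells. All animals were untreated male C57BL/6J mice, with 2 sections at postnatal day 21 (P21), 2 adult sections (12 to 15 weeks) and 2 aged sections (28 months), each labelled as a separate biological replicate. The comparisons asked how expression at P21 and at 28 months differed from that in the adult, in whole sections and in anatomical zones. With 2 sections per age, p-values rest on the spread between pairs of sections.

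Heat shock proteins are molecular chaperones that hold, fold or unfold other proteins, and HSP70 proteins do so by repeated binding and release driven by ATP. DnaJ proteins, also called HSP40 proteins, bring clients to an HSP70 partner and stimulate its ATPase through the J domain. Some of these genes are transcribed at all times, whereas others are induced when heat shock factor 1 binds heat shock elements in their promoters, and a set in the endoplasmic reticulum (ER) is induced by the unfolded protein response. Neurons are long-lived cells that use chaperones to clear misfolded proteins and to uncoat clathrin-coated vesicles.

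Sections held 42422997 to 106783660 UMIs on 2917 to 3679 spots, with medians per spot of 12075 to 25535 UMIs. Spots were clustered without the chaperone genes, and clusters were named from marker panels. Names were fiber tracts (FT), striatum (STR), cortex (CTX), hypothalamus (HY), thalamus (TH) and hippocampus (HP). Others were reticular thalamus (RT), ventricular system (VS) and meninges with large vessels (MEN). A cortex cluster of 2043 spots scored 0.238 on its panel, near the minimum of 0.2. When zones were instead assigned by panel score, 83.1% of spots kept their zone. The aged sections were captured on another slide version, with another probe design and software version, and shared 0 spot barcodes with the other 4 sections, so that age and platform cannot be told apart in aged vs. adult levels. In sums over spots, fewer cells of a type and less RNA per cell cannot be told apart. Levels are given as CPM, UMIs scaled to a common total after the total of each section or zone was adjusted by TMM normalization. They were not compared between genes, because each gene is read by its own probes.

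Promoter sequences are shown for Hspa1b, Hspa1a and Hspb1, which had the largest aged vs. adult differences of the tested chaperone genes. Windows of Hspa5 and Hspe1 are shown for the motifs that they hold. Hspa1a and Hspa1b, the stress-inducible cytosolic HSP70 genes, differ so little that reads can be hard to divide between them. Both lie on the minus strand of chromosome 17, Hspa1a at chr17:34969190-34972156 and Hspa1b at chr17:34956436-34959238 (GRCm38). The 250 bases before each start (RefSeq, GRCm38.p6) are identical at 247 of 250 positions and differ at 3. Capitals mark GAANNTTC, a pair of inverted heat shock element units, which in both begins 104 bases before the start.
Hspa1a, chr17:34972157-34972406: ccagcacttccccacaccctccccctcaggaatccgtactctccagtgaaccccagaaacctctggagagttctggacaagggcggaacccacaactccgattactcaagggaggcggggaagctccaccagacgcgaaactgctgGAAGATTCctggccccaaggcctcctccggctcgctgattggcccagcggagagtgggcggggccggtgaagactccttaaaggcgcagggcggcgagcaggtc
Hspa1b, chr17:34959239-34959488: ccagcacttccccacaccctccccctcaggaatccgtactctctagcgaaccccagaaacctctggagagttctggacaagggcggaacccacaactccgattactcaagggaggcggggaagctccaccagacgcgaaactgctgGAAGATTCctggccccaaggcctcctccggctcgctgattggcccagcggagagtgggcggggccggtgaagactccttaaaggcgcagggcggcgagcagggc
Hspb1, which encodes the small heat shock protein HSP27, lies at chr5:135887919-135889563 on the plus strand. The 150 bases before its start hold the pair at 117 and 97 bases before it.
Hspb1, chr5:135887769-135887918: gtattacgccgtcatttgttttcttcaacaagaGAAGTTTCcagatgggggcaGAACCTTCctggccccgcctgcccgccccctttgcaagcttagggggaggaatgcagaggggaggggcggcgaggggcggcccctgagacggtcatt
Hspa5, at chr2:34771970-34777547 on the plus strand, encodes BiP, the HSP70 of the ER. A 30-base window shows its ER stress response element (capitals, CCAAT and CCACG separated by 9 bases), the motif bound in the unfolded protein response.
Hspa5, chr2:34772020-34772049: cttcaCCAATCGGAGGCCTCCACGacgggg
Hspe1 (HSP10, at chr1:55088132-55091307 on the plus strand) encodes the lid of the mitochondrial chaperonin. Hspd1 (HSP60, at chr1:55077835-55088243 on the minus strand) encodes the chaperonin itself, and both are read from a shared start region. A 30-base window there holds 2 overlapping runs of 3 units, in which GAANNTTC is followed by any 2 bases and a further GAA (capitals, 1 run on each strand).
Hspe1, chr1:55088053-55088082: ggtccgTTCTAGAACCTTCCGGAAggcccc

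Windows from 250 bases before to 50 after the start were held for 55 of the 67 genes, and motifs were searched on both strands. A pair of inverted units in either order, GAANNTTC or TTCNNGAA, was present for 16 of these 55 genes (29.1%). The share over all 27025 genes with a window was 17.0%. Dnajb4 and Dnajc10 held TTCNNGAA only. The run of 3 units, which contains GAANNTTC, was present for Dnajb6, Hspd1, Hspe1 and Hsph1, beside 0.662% of all genes, and in 0.603% of all 32851 promoters. The ER stress response element was present for Dnajc3, Hsp90b1 and Hspa5, all ER chaperones or cochaperones, beside 0.137% of all genes, and in 0.119% of all promoters. These are matches of letters and were not tested for binding.

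In aged vs. adult whole sections, Hspa1b, Hspa1a, Hspb1, Dnajb5, Dnajb9 and Hspa5 rose and Hspb11 fell (adjusted p under 0.05 and fold change above 1.5). These 7 were 12.7% of the 55 tested chaperone genes, beside 9.09% of all 11338 genes tested, and the 6 that rose and 1 that fell stand beside 3.71% and 5.38% of all genes. Hspa1a and Hspb1 lay near the detection minimum in P21 and adult sections, as given below. Without the fold minimum, 26 of 55 passed (47.3%), with 14 higher and 12 lower, beside 54.7% of all genes. The median log2 fold change was -0.03 for the chaperone genes and -0.11 for all genes tested.

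**Figure D1:**
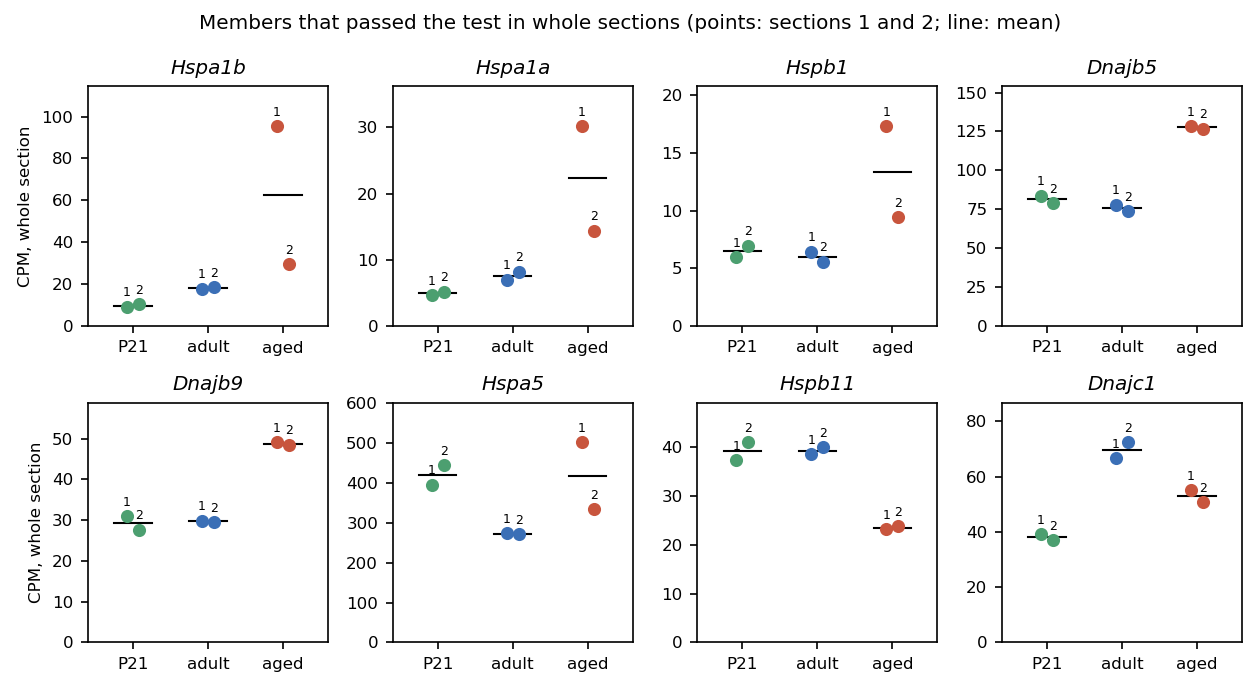
CPM in each of the 6 whole sections for the chaperone genes called in at least 1 comparison, in panels with their own linear axes. Points are sections 1 and 2 of each age and lines are their means. Hspa1b, Hspa1a, Hspb1 and Hspa5 lay higher in aged section 1 than in aged section 2, whereas Dnajb5, Dnajb9 and Hspb11 were nearly equal in both.

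Hspa1b stood at 9.12 and 10.3 CPM at P21, at 17.8 and 18.5 CPM in the adult, and at 95.5 and 29.5 CPM at 28 months. Both aged sections lay above all others, and aged section 1 lay far above aged section 2. Hspa1b was 3.47-fold higher in aged sections (log2 1.80 ± 0.38 SE, adjusted p = 0.00191), and the log2 difference was 0.72 without aged section 1 (adjusted p = 0.000124) and 2.42 without aged section 2. Hspa1a was at 4.62 and 5.17 CPM at P21, 6.95 and 8.16 in the adult, and 30.2 and 14.4 in aged sections. Its order of sections was the same, and its rise was 2.97-fold (log2 1.57 ± 0.26 SE, adjusted p = 0.000444; 0.95 without aged section 1 and 2.02 without aged section 2). How reads were divided between Hspa1a and Hspa1b was not tested. Hspb1 was at 5.98 and 6.95 CPM at P21, 6.42 and 5.57 in the adult, and 17.3 and 9.44 in aged sections. P21 and adult levels overlapped and both aged sections lay above them, with a 2.25-fold rise (log2 1.17 ± 0.23 SE, adjusted p = 0.00124; 0.67 without aged section 1 and 1.55 without aged section 2).

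These 3 were the members of the heat-inducible group that rose, of 11 tested, beside 3.71% of all genes. The detection minimum was taken over spots of all ages, aged ones included. Hspa1a had a UMI in 5.88% to 11.1% of spots in P21 and adult sections, and in 45.5% and 32.9% in aged sections. For Hspb1 these values were 6.93% to 12.9%, and 29.6% and 23.9%. Both thus lay near the minimum outside the aged sections. Of genes below the minimum, 57.3% rose in aged sections, so 3.71% is no matched baseline for these 2. The heat-inducible group includes the mitochondrial Hspd1 and Hspe1, which are also counted among the mitochondrial genes. Hsph1 and Hspa4l are also counted among the constitutive HSP70 and HSP110 genes, and Hsp90aa1 among the HSP90 genes. These groups are therefore not separate. The median log2 difference of the group was 0.48, beside -0.11 over all genes. Dnajb1 and Dnajb4 encode HSP40 proteins and Dnaja1 a farnesylated DnaJ protein; they were higher by log2 0.48 (adjusted p = 0.0116), 0.48 (adjusted p = 0.000404) and 0.51 (adjusted p = 0.000149), below the fold minimum. Hsp90aa1, the inducible cytosolic HSP90, was higher by 0.31 (adjusted p = 0.00511), and Hsph1, an HSP110 that acts as nucleotide exchange factor for HSP70, was lower at -0.36 (adjusted p = 0.0182; -0.61 without aged section 1). Hspd1, Hspe1 and Hspa4l, another HSP110 family gene, did not pass the test, with log2 values of 0.23 (adjusted p = 0.0614), 0.20 (adjusted p = 0.239) and 0.04 (adjusted p = 0.645). Of the 4 genes with the run of 3 heat shock element units, Dnajb6, Hspd1, Hspe1 and Hsph1, none rose in whole sections.

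The aged sections differed from each other for this group. A total of 10 of 11 heat-inducible genes were higher in aged section 1 than in aged section 2, with a median ratio of 1.36 and a range of 0.886 to 3.24. Between the adult sections the median ratio was 0.963, with a range of 0.852 to 1.15. Over all 55 tested chaperone genes, 36 were higher in aged section 1 and the median ratio was 1.06. Immediate early genes, which neurons transcribe within minutes of stimulation, had a median ratio of 1.10 over 10 genes between the aged sections and 1.49 between the adult sections. The ratio between the aged sections over all genes was not computed, so the ratios of the heat-inducible genes lack that baseline. The aged sections also differed in make-up. Thalamus held 667 and 413 spots in aged sections 1 and 2, and hypothalamus 610 and 858. Hcrt, a gene of the hypothalamus panel, was at 214 and 0.856 CPM there, and at 0.117 and 152 CPM in the adult sections. What set the aged sections apart, and the part of this make-up, was not tested.

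In the ER, Hspa5 was at 396 and 445 CPM at P21, 274 and 271 CPM in the adult, and 502 and 335 CPM in aged sections. The adult sections were the lowest of the 6. Hspa5 rose 1.55-fold in aged sections (log2 0.63 ± 0.14 SE, adjusted p = 0.00271); without aged section 1 the difference was 0.32 (adjusted p = 0.00471) and below the fold minimum. Dnajb9 (ERdj4), a DnaJ partner of BiP in ER-associated degradation, was at 30.9 and 27.7 CPM at P21, 29.8 and 29.5 CPM in the adult, and 49.1 and 48.5 CPM in aged sections. The aged sections were nearly equal and lay above the other 4, with a 1.66-fold rise (log2 0.73 ± 0.07 SE, adjusted p = 1.36e-05). Of 11 ER chaperone genes tested, these 2 rose and none fell, beside 3.71% and 5.38% of all genes, and the median was -0.10. Dnajb11 (ERdj3, log2 -0.39) and Dnajc1 (a DnaJ protein of the ER membrane, -0.38) were lower at adjusted p under 0.05 without reaching the fold minimum. Of 12 other unfolded protein response genes tested, none was called in aged sections, with 2 higher and 2 lower below the fold minimum.

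Dnajb5, a DnaJ protein described as a redox-sensitive partner of class II histone deacetylases, was at 83.8 and 78.9 CPM at P21, 77.8 and 73.6 CPM in the adult, and 128.5 and 126.9 CPM in aged sections. The aged sections lay close together and above the other 4, with a 1.70-fold rise (log2 0.77 ± 0.07 SE, adjusted p = 8.21e-06). Hspb11 (IFT25), which despite its symbol is a subunit of the intraflagellar transport complex of cilia, was at 37.4 and 41.0 CPM at P21, 38.6 and 40.1 in the adult, and 23.2 and 23.9 in aged sections. P21 and adult values overlapped, and aged levels were below all of them (log2 -0.73 ± 0.07 SE, adjusted p = 1.42e-05).

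Other groups showed no called member in aged whole sections, where 9.09% of all genes were called: 8 constitutive HSP70 and HSP110 genes tested (median log2 -0.03), 2 HSP90 genes (0.05), 5 mitochondrial genes (-0.07), 3 synaptic genes (-0.09), 6 genes for neuronal client handling (-0.06) and 4 nuclear genes (-0.09). At adjusted p under 0.05 and any fold, edgeR passed 1 HSP70 gene up (Hspa2, log2 0.16), 1 HSP90 gene up (Hsp90aa1) and 1 synaptic gene up (Dnajc6, auxilin, which drives clathrin uncoating, 0.56). It passed Hspa12a (an atypical HSP70, -0.45), Hsph1, the cytosolic DnaJ genes Dnaja2 (-0.25) and Dnaja4 (-0.28) of the client handling group, the mitochondrial HSP70 Hspa9 (mortalin, -0.33), the synaptic vesicle cochaperone Dnajc5 (cysteine string protein, -0.44) and Dnajc9 (a histone chaperone, -0.56) in the other direction.

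Among genes that work with these chaperones, few were called in aged sections. Of 18 HSP70 and HSP90 cofactors, Fkbp5, an HSP90 cochaperone of the glucocorticoid receptor, rose (log2 0.79), and the list median was -0.08. None of 8 subunits of the cytosolic chaperonin TRiC and neither of the 2 tested heat shock factors, Hsf2 and Hsf4, was called. Hsf2 was higher by log2 0.48 (adjusted p = 0.000193 in edgeR), below the fold minimum. Hsf1, which encodes heat shock factor 1, was not among the genes in the count matrices and was not tested. Of 9 immediate early genes tested, 6 rose (median 0.87), the highest being Egr1 (2.42).

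**Figure D2:**
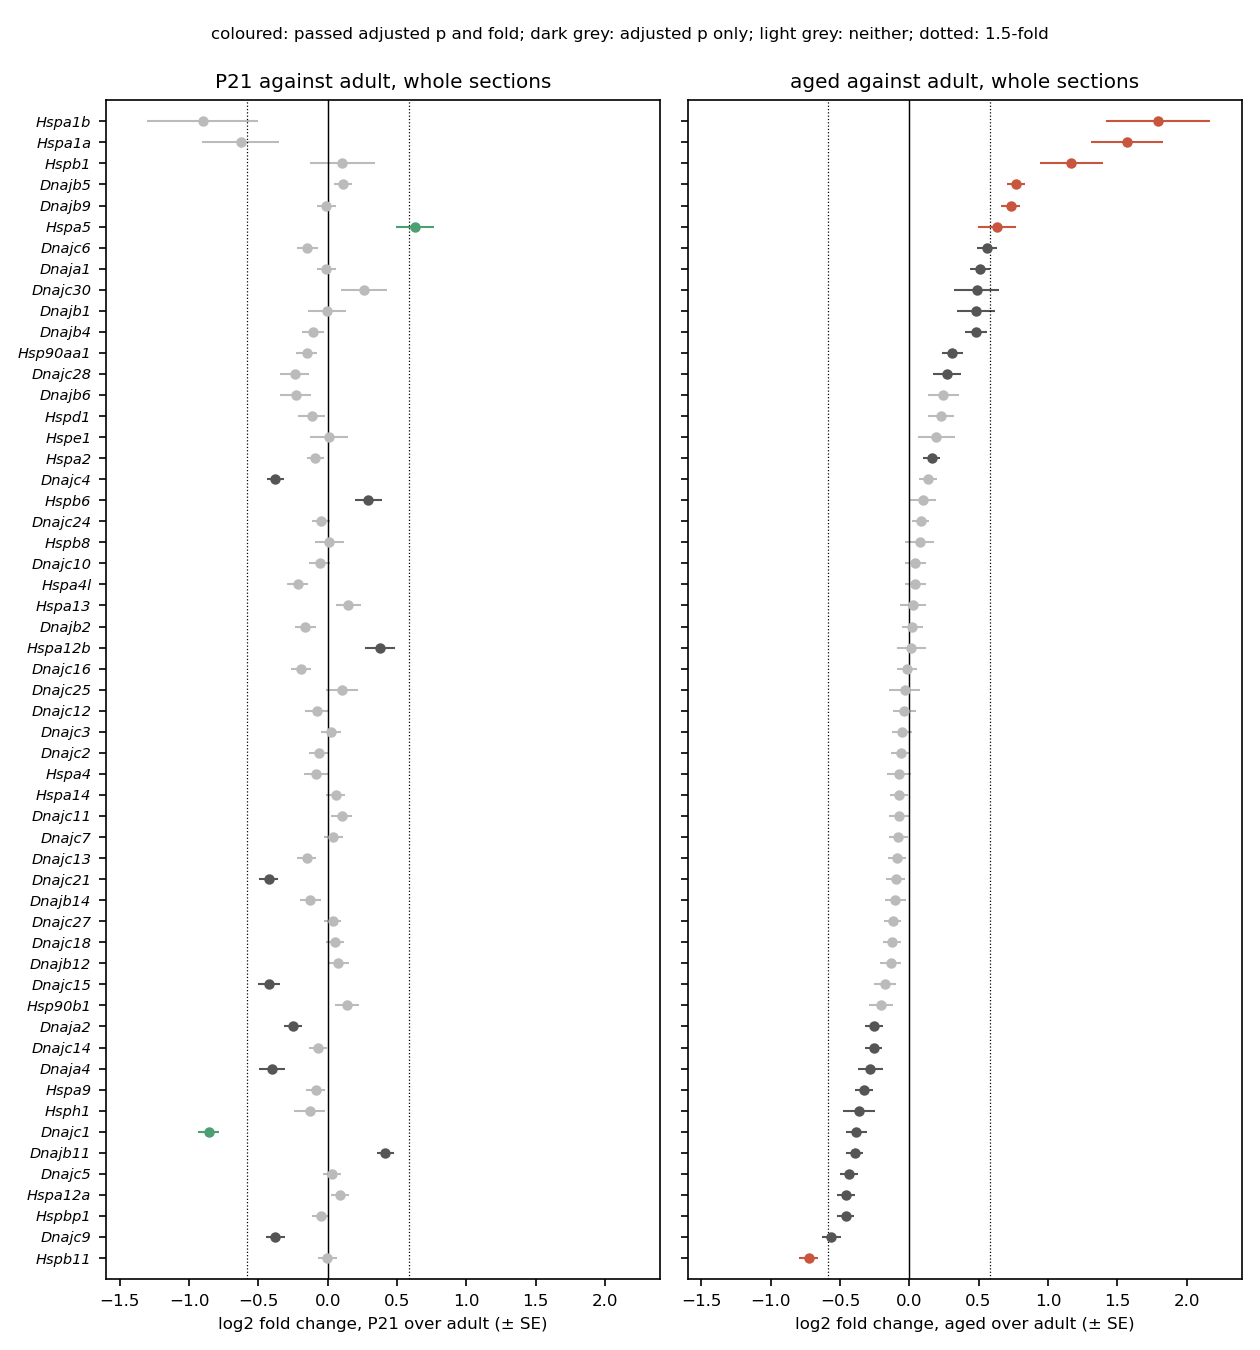
Log2 fold change in whole sections of each tested chaperone gene at P21 and in aged sections, each against adult sections, with bars of 1 SE from the edgeR fit. Coloured points passed adjusted p under 0.05 and 1.5-fold, dark grey points passed the adjusted p alone, and dotted lines mark 1.5-fold. Hspa1b, Hspa1a and Hspb1 lie farthest above 0 in aged sections, and Dnajc1 is the called fall at P21.

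In P21 vs. adult whole sections, Hspa5 rose and Dnajc1 fell. These 2 of 55 genes (3.64%), 1 in each direction, stand beside 5.17% of all genes (3.13% higher and 2.04% lower), and 11 of 55 (20%) passed without the fold minimum, beside 30.1% of all genes. Hspa5, with the values above, rose 1.55-fold at P21 (log2 0.63 ± 0.14 SE, adjusted p = 0.0059), and the value was 0.54 without P21 section 2 (adjusted p = 0.0867). Dnajc1 was at 39.2 and 37.0 CPM at P21, 66.6 and 72.4 CPM in the adult, and 55.0 and 50.7 CPM in aged sections. The 3 ages did not overlap, and the adult was the highest (log2 -0.86 ± 0.07 SE, adjusted p = 1.19e-05). Hspa1b at -0.90 ± 0.40 SE and Hspa1a at -0.63 ± 0.28 SE did not pass (adjusted p = 0.11 for both). The spread was shared by all 6 sections, and without aged section 1 the values were -0.90 (adjusted p = 1.93e-05) and -0.63 (adjusted p = 0.00179).

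Below the fold minimum, Dnajb11 (log2 0.41), the vascular HSP70 gene Hspa12b (0.38) and the small heat shock gene Hspb6 (0.29) were higher at P21. Dnajc15 (-0.43), a mitochondrial inner membrane DnaJ protein, Dnajc21 (-0.42), which acts in ribosome assembly, Dnaja4 (-0.40), Dnajc9 (-0.38), Dnajc4 (-0.38) and Dnaja2 (-0.25) were lower. None of the 11 heat-inducible genes passed edgeR at P21 at any fold, and their median was -0.12. Hsf4, a heat shock factor best known from the lens, fell at P21 (log2 -1.56), with 7.19 and 7.43 CPM against 22.7 and 20.6 CPM in the adult. A total of 5 of 9 immediate early genes fell (median -0.70). All 7 oligodendrocyte markers rose at P21, with summed levels of 25029 and 26059 CPM against 12635 and 12417 CPM, and the part of cell composition in the chaperone levels was not tested.

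Across the 6 zones with enough spots, all ages together and section kept as a block, 52 of the 55 genes differed (94.5%), beside 95.6% of all genes. Thalamus was the highest zone for 16 of these 52, fiber tracts for 11, hypothalamus for 8, hippocampus for 7, and cortex and striatum for 5 each. Fiber tracts were also the lowest zone for 17. How all genes divided by highest or lowest zone was not counted, so these counts are not read as particular to the chaperone genes. In what follows, levels are means ± SD over 6 sections on a scale shared by all zones, and zone differences are log2 ratios to the mean of the other 5 zones.

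**Figure D3:**
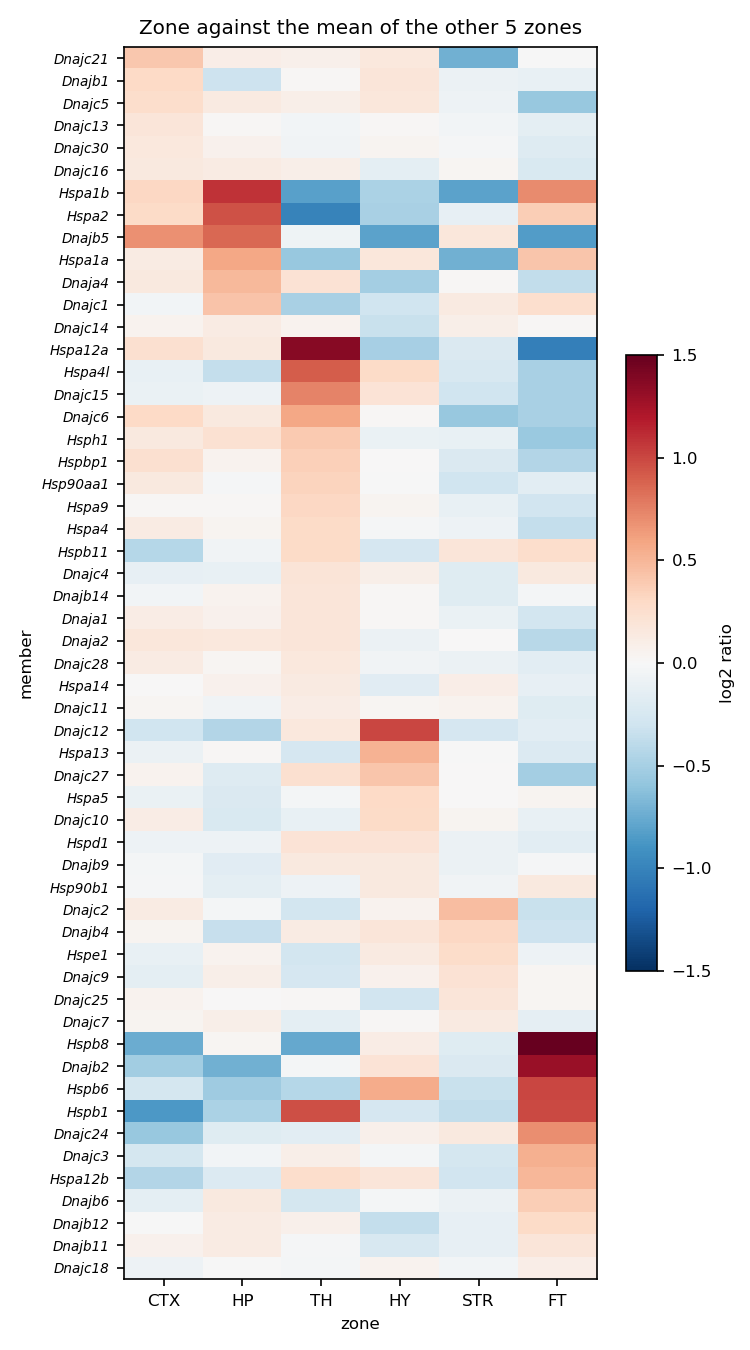
Log2 ratio of each zone to the mean of the other 5 zones for the 55 tested chaperone genes, from the edgeR fit with section as a block, drawn as a colour scale that stops at 1.5. Hspa12a and Hspa4l stand out in thalamus, and Hspb8 and Dnajb2 in fiber tracts.

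Dnajb2 (HSJ1), a neuronal DnaJ protein that sorts ubiquitylated clients to the proteasome, was highest in fiber tracts in 6 of 6 sections, at 274 ± 72.4 CPM against 87.9 ± 8.57 CPM in hippocampus (log2 1.29 ± 0.07 SE, adjusted p = 1.46e-15). Hspb8, a small heat shock protein of chaperone-assisted autophagy, was likewise highest there at 46.8 ± 19.7 CPM (log2 1.57, adjusted p = 3.16e-11). Dnajc24, needed for diphthamide synthesis on elongation factor 2, was at 51.1 ± 5.35 CPM in fiber tracts (log2 0.69, adjusted p = 5.58e-14). These genes thus shared the myelin-rich zone.

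On this shared scale, Hspa12a was at 573 ± 16.9 CPM in thalamus (log2 1.36), with its lowest level in fiber tracts (-1.03; adjusted p = 7e-13 over zones). Hspa4l was at 314 ± 77.1 CPM in thalamus (log2 0.91, adjusted p = 7.32e-14) and Dnajc15 at 123 ± 28.2 CPM (0.75, adjusted p = 5.79e-15). Hsph1 had its highest ratio in thalamus too (0.39) and its lowest in fiber tracts (-0.56; adjusted p = 2.9e-12). Each of these 4 genes was highest in thalamus in 6 of 6 sections.

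Dnajc12, a cochaperone of the aromatic amino acid hydroxylases that make monoamine transmitters, was highest in hypothalamus at 77.4 ± 14.4 CPM (log2 1.0, adjusted p = 3.32e-14). Dnajc27, a small GTPase with a J domain, had its highest ratio there (0.42, adjusted p = 1.95e-11) but was highest in hypothalamus in 4 of 6 sections. Hspa2, a testis-enriched HSP70 also expressed in neurons, was highest in hippocampus at 62.9 ± 12.9 CPM (log2 0.95) and lowest in thalamus at 21.0 ± 2.96 CPM (-1.0; adjusted p = 6.78e-13). Hspa1b was also highest relative to the other zones in hippocampus (1.09 ± 0.20 SE), and Dnajb5 in hippocampus (0.86) and cortex (0.68). In fiber tracts Hspa1b ran at 0.70 over the 6 sections, but 295 CPM in aged section 1 stood against 9.19 to 33.2 CPM in the other 5.

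Within the hippocampus, 44 of the 55 genes differed between CA1-2, CA3, dentate gyrus (DG) and the remaining matrix (80.0%), beside 83.3% of all genes. Dnajc6 was at 366 ± 128 CPM in CA3 and at 156 to 167 CPM in the other subzones (log2 1.15 ± 0.06 SE, adjusted p = 1.84e-13). Hsp90aa1 was also highest in CA3 at 940 ± 153 CPM (0.69) and lowest in DG (-0.61). Hspa2 was highest in DG (0.71) and Dnajb5 in CA1-2 (0.68). The matrix, which holds few neuronal somata, was highest for Hspb1 (2.01), Hspb8 (1.76), Hspa12b (1.73) and Dnajb2 (1.18). Of the genes highest in fiber tracts, Hspb8 and Dnajb2 thus led in the matrix, whereas Dnajc24 was highest in DG (0.59; 39.5 CPM against 32.0 CPM in the matrix).

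A separate readout was the deposited Moran's I, a score of how far neighbouring spots resemble each other. Its median over the chaperone genes exceeded the median of all listed genes in each section, from 0.0144 against 0.0113 in P21 section 2 to 0.0608 against 0.0295 in aged section 2. The chaperone genes and all listed genes were not matched by detection in spots, and the part of detection in this difference was not tested. Hspa12a had the highest median over sections, 0.308 (0.251 to 0.485), followed by Hspa4l at 0.174, Dnajb2 at 0.161, Hsph1 at 0.135, Hsp90aa1 at 0.124 and Dnajc6 at 0.109. These genes were also among those with strong zone or subzone differences.

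In aged vs. adult zones, 24 of the 55 genes were called in at least 1 of 6 zones (43.6%), 18 higher and 6 lower, beside 42.6% of all genes. None was called in opposite directions. From here on, CPM by zone are scaled within each zone, so that they differ from the values on the scale shared by all zones. Higher and lower counts were 8 and 1 in cortex, 9 and 1 in hippocampus, 7 and 0 in thalamus, 9 and 0 in hypothalamus, 10 and 2 in striatum, and 10 and 4 in fiber tracts. The shares of all genes called higher were 6.25%, 5.84%, 6.5%, 6.52%, 8.01% and 12.9%, and those called lower 3.88%, 6.58%, 7.21%, 5.33%, 6.18% and 14.9%, in that order. Thus the chaperone genes were called higher more often than all genes in each of the 6 zones, and this difference in shares was not tested. The 6 zones are not separate observations, because they come from the same sections and the same genes recur. Hspa1b, Hspa1a, Hspb1 and Dnajb9 were among those called higher in each zone, and Hspa5 in 5 zones. The counts thus include Hspa1a and Hspb1, whose low detection in P21 and adult sections is given above.

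**Figure D4:**
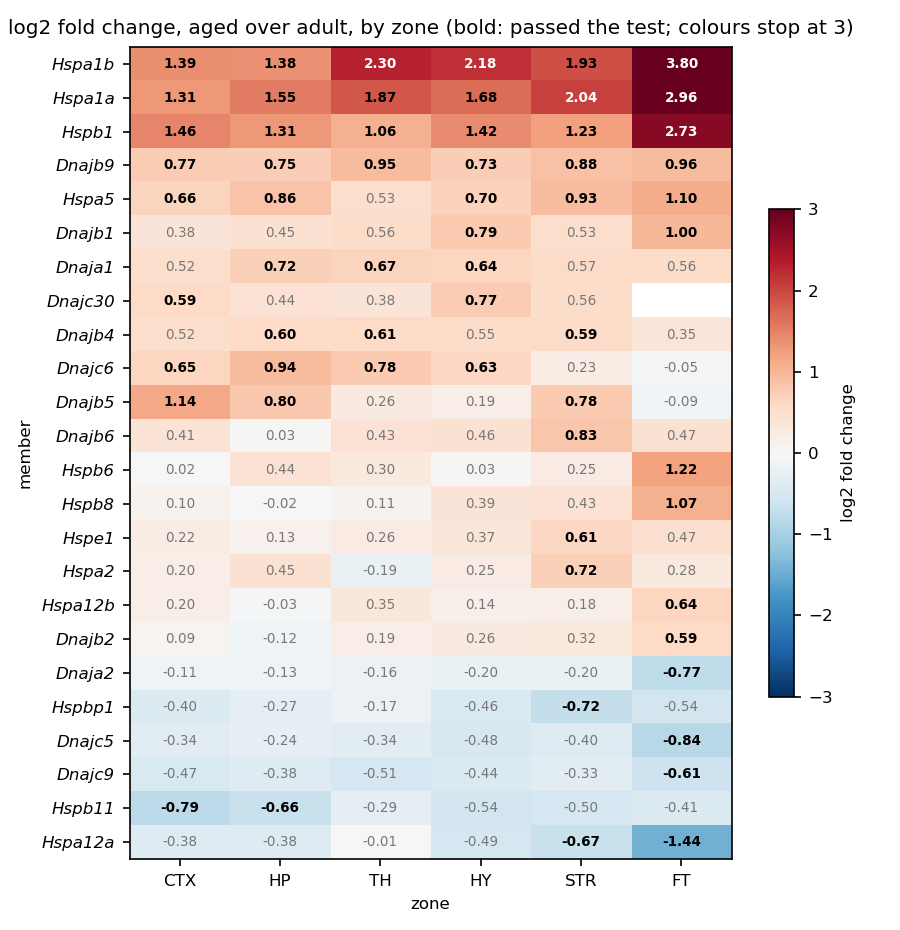
Log2 fold change aged vs. adult in each zone for the chaperone genes called in at least 1 zone, drawn as a colour scale that stops at 3, with the values printed, called values in bold and 1 untested value blank. Hspa1b reaches 3.80 in fiber tracts, and Hspa12a falls by 1.44 there but is at -0.01 in thalamus.

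Hspa1b, Hspa1a, Hspb1 and Dnajb9 were called in all 6 zones. The shares of all genes called in all 6 zones, or in opposite directions between zones, were not counted. Hspa1b in cortex was at 8.67 and 8.66 CPM at P21, 20.9 and 24.0 CPM in the adult, and 79.0 and 36.5 CPM in aged sections. The 3 ages did not overlap there (aged vs. adult log2 1.39 ± 0.25 SE, adjusted p = 0.000833). In fiber tracts it was at 9.08 and 11.7 CPM at P21, 11 and 13.6 in the adult, and 290 and 33.0 in aged sections (log2 3.80 ± 0.64 SE, adjusted p = 0.000104). Aged section 1 was again the highest by far, and P21 and adult values overlapped. In thalamus, hypothalamus and striatum the log2 differences were 2.30, 2.18 and 1.93, and without aged section 1 they were 0.34 (adjusted p = 0.192), 0.71 (adjusted p = 0.0566) and 0.19 (adjusted p = 0.665), so the calls in these zones rested on that section. They were also lost without either adult section.

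Hspb1 in fiber tracts was at 5.25 and 3.1 CPM at P21, 7.81 and 3.82 CPM in the adult, and 41.1 and 31.1 CPM in aged sections. Both aged sections lay well above all others (log2 2.73 ± 0.25 SE, adjusted p = 1.42e-07), against differences of 1.06 to 1.46 in the other 5 zones. Hspa1a rose by 1.31 in cortex to 2.96 in fiber tracts. Dnajb9 rose by 0.73 to 0.96 in every zone, the narrowest range of the 4 genes. The calls of Hspa1a in thalamus, hypothalamus and striatum and of Hspb1 in hypothalamus and striatum were each lost without at least 1 adult section, and that of Dnajb9 in hippocampus was lost at 0.54 without adult section 1.

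Hspa5 passed in 5 zones, from 0.66 in cortex to 1.10 in fiber tracts, and in thalamus its 0.53 stayed below the fold minimum (adjusted p = 0.0195). Without aged section 1 its value was 0.33 in cortex, 0.51 in hippocampus and 0.36 in hypothalamus, and these calls were lost. Dnaja1 rose in hippocampus (0.72), thalamus (0.67) and hypothalamus (0.64), Dnajb4 in hippocampus, thalamus and striatum (0.59 to 0.61; 0.38 to 0.49 and not called without aged section 2), and Dnajb1 in hypothalamus (0.79) and fiber tracts (1.0; both lost without aged section 1, at 0.38 and 0.41). Hspe1 rose in striatum alone (0.61; 0.41 and not called without aged section 1). Hspb11 fell in cortex (-0.79) and hippocampus (-0.66; -0.55 and not called without aged section 1).

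Several other genes were called in fiber tracts. Hspb8 was at 33.2 and 29.6 CPM at P21, 36.02 and 36.3 CPM in the adult, and 71.6 and 70.6 CPM in aged fiber tracts (log2 1.07 ± 0.11 SE, adjusted p = 7.5e-07). Both aged sections lay above the other 4. Hspb6 (1.22), Hspa12b (0.64; 0.47 and not called without adult section 1) and Dnajb2 (0.59; 0.38 and not called without aged section 1, and also lost without adult section 2 or either P21 section) also rose there, whereas Dnajc5 (-0.84), Dnaja2 (a cytosolic DnaJ protein, -0.77) and Dnajc9 (-0.61; -0.55 and not called without adult section 2) fell. In the same zone 6 of 7 microglia markers rose, with summed levels of 739 and 815 CPM in the adult and 2373 and 2349 CPM in aged sections. Pan-neuronal markers summed to 3996 and 3708 CPM in the adult and 1809 and 1918 CPM in aged fiber tracts, with 4 of 7 lower and none higher. Astrocyte markers summed to 4237 and 4209 CPM and to 7045 and 6993 CPM, and 0 of 7 oligodendrocyte markers were called. Their part in the chaperone differences was not tested.

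Whether an age difference varied between zones was tested by a zone-by-age interaction with section as a block. The block takes out any factor that a section has equally in all its zones. It does not take out an effect of the slide version that differs between zones. Age and platform thus cannot be told apart in the aged interaction either. For aged vs. adult, 26 of 55 genes passed (47.3%), beside 49.3% of all genes. Hspa12a gave the smallest p (adjusted p = 2.3e-10). In fiber tracts it was at 191.6 and 181.5 CPM at P21, 173.5 and 179.7 CPM in the adult, and 59.8 and 61.9 CPM in aged sections (log2 -1.44 ± 0.09 SE, adjusted p = 2.55e-09). In thalamus it was at 526.8 and 552.6 CPM, 524.4 and 540.3 CPM, and 520.6 and 513.1 CPM (-0.01). Thus the aged sections lay far below the others in fiber tracts, and just below them in thalamus, and the other 4 zones ran from -0.38 to -0.67.

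Dnajb5 (interaction adjusted p = 7.18e-07) was at 104.7 and 92.2 CPM at P21, 86.2 and 80.5 CPM in the adult, and 182.6 and 176.7 CPM in aged cortex (log2 1.14 ± 0.08 SE, adjusted p = 1.16e-06). Aged cortex lay far above both other ages, while the difference was 0.80 in hippocampus and 0.78 in striatum, 0.26 in thalamus, 0.19 in hypothalamus and -0.09 in fiber tracts. Dnajc6 (interaction adjusted p = 1.53e-06) rose in hippocampus (0.94), thalamus (0.78), cortex (0.65) and hypothalamus (0.63; 0.57 and 0.58 in these zones, and not called, without adult section 1), with 0.23 in striatum and -0.05 in fiber tracts. In hippocampus its levels were 163.9 and 135.6 CPM at P21, 170.2 and 186.4 in the adult, and 360.1 and 309.9 in aged sections, which lay above all others. Immediate early genes were higher in cortex for 9 of 9 tested and in hippocampus for 6 of 9, and their part in these differences was not tested. The make-up of the hippocampal zone also differed between ages. CA3, where Dnajc6 was highest, held 34 of 400 and 52 of 481 hippocampal spots in adult sections. In aged sections it held 86 of 311 and 49 of 254. The part of this make-up in the hippocampal differences was not tested.

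**Figure D5:**
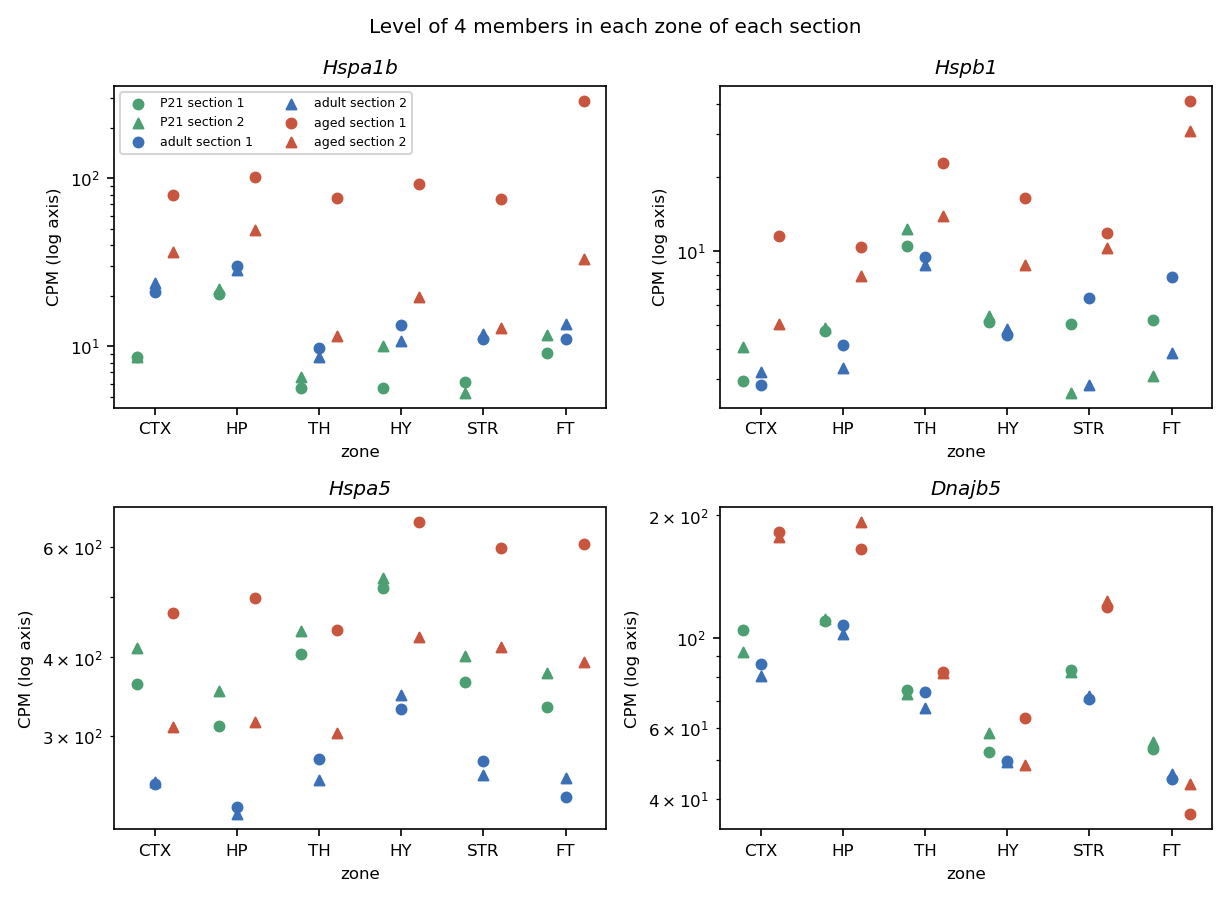
CPM by zone and section, on log axes, for Hspa1b, Hspb1, Hspa5 and Dnajb5. Each point is a section, with age by colour and section number by shape. Aged section 1 is the highest point of Hspa1b in all 6 zones, up to 290 CPM in fiber tracts, whereas for Dnajb5 both aged sections lie above the others in cortex, hippocampus, thalamus and striatum and below them in fiber tracts.

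In P21 vs. adult zones, 8 of the 55 genes were called in at least 1 zone (14.5%), beside 16.4% of all genes. Dnajc1 fell in 5 zones, from -0.71 in cortex to -1.01 in fiber tracts, where it was at 40.6 and 38.2 CPM at P21 and 76.6 and 82.8 CPM in the adult, with no overlap. Hspa5 rose in cortex (0.61) and thalamus (0.66). In cortex Hspa1b fell by 1.38 (± 0.31 SE, adjusted p = 0.00741; adjusted p = 0.0518 without P21 section 1) and Hspa1a by 0.86 (adjusted p = 0.0168; not called at -0.67 without P21 section 1 or at -0.63 without adult section 2), with the P21 sections below the adult sections in both. The other calls were Dnajc15 in thalamus and fiber tracts (both lower), Dnajc21 in cortex and striatum (both lower), Dnajb11 in striatum (0.64) and Hspb6 in hippocampus (0.87). Of these zone calls, those of Dnajc1 in cortex, hippocampus, thalamus and fiber tracts held with each P21 or adult section left out, and each of the others was lost without at least 1 of them. Of all genes, 4.75% were called in cortex, 6.34% in hippocampus, 6.9% in thalamus, 3.97% in hypothalamus, 3.99% in striatum and 9.48% in fiber tracts, and of the chaperone genes 5, 2, 3, 1, 2 and 2 genes.

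The zone-by-age interaction at P21 was passed by 0 of 55 genes in edgeR (9 at an unadjusted p under 0.05), beside 10.3% of all genes. The smallest values were those of the ER disulfide reductase Dnajc10 (ERdj5, adjusted p = 0.0534), the ER cochaperone Dnajc3 (P58IPK, adjusted p = 0.0567) and Hspa2 (adjusted p = 0.0641).

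The 12 genes below the detection level held 50 to 1722 UMIs over all 6 sections. Genes below this level rose in aged sections in 57.3% of cases over all genes and fell in 3.5% (10% and 2.94% at P21). Of the 11 low genes with enough UMIs for a fit, 5 rose (Dnajc5b, Dnajc5g, Dnajb8, Hspb9 and Dnajb7) and Dnajb3 fell. Dnajb3, a testis-enriched DnaJ gene, was at 4.96 and 4.78 CPM in the adult and 2.78 and 2.8 CPM in aged sections, with no overlap (log2 -0.79 ± 0.14 SE, adjusted p = 0.000881 in edgeR). Hspb9 gave 9 and 2 UMIs in the adult and 51 and 45 in aged sections, and Dnajb8 gave 0 and 0 against 28 and 47, while aged sections held more UMIs in total. Hspb7 (log2 0.19), Hspa1l (0.07), Dnajb13 (0.02), Hspb3 (0.39) and Hspb2 (0.49) did not pass. At P21, Dnajc5b (1.36) and Dnajb13 (0.86) rose. The part of the slide version and probe design in these low counts was not tested.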

How the data were processed

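Per the file headers, matrices came from Space Ranger 2.0.0 (P21 and adult) and 3.1.1 (aged); the submitters' processing notes list Space Ranger 2.1.0, Seurat 5.1.0 and mm10. The deposited matrices hold raw UMI counts per gene and spot, not normalized by the authors. Moran's I was used as a deposited score made by the authors per section. Spots under 250 genes or 500 UMIs were removed. Spots were clustered (leidenalg 0.10.2, resolution 0.3) without the chaperone and related genes, and clusters were named from marker panels. Counts were summed per section, or per section and zone, and tested over all genes with edgeR 4.0.16 (TMM, quasi-likelihood), with Benjamini-Hochberg adjustment over all genes tested. Genes in at least 10% of spots were tested, and a call needed adjusted p under 0.05 and a fold above 1.5. SE is the log2 fold change divided by the square root of F. The test was checked on simulated counts for P21 vs. adult whole sections, with 200 genes changed by 1.5-, 2- or 3-fold. At adjusted p under 0.05 it recovered 95%, 100% and 100% of these. Of its calls, 5%, 5.21% and 8.68% were false. The aged, zone and interaction tests were not checked in this way. Precision is limited by 2 sections per age. The rule on symbols that gave the members, and the gene lists, were set with earlier results of these data known. Genes named singly were called in whole sections, led the zone or interaction tests, were in the heat-inducible list or were named by the study; others were chosen after their values were seen. Alternatives were DESeq2 1.42.0 size factors, plain CPM without TMM, other filters, a replicate block, thinned counts, other zone assignments and left-out sections. Gene coordinates were from GENCODE release M21 for mm10 (GRCm38), matched for 67 of 67 genes.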

Additional observations from a re-analysis of the deposited data

Results flagged for a closer look

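The aged vs. adult difference varied between the 6 zones for 26 of the 55 tested chaperone genes (47.3%), near the share of all genes, and for 15 of the 27 genes named singly, some of which were named because they led this test, by a test of the zone-by-age interaction with section as a block (edgeR, adjusted p), beside 49.3% of all genes tested. In order of p these were Hspa12a (2.3e-10), Dnajb5 (7.18e-07), Dnajc6 (1.53e-06), Hspa5 (8.22e-06), Dnajc12 (0.000816), Hspb8 (0.000824), Dnajb2 (0.000957), Hspa2 (0.00119), Hspe1 (0.00382), Hspb1 (0.00415), Dnajb1 (0.00506), Dnajc3 (0.0086), Dnajc1 (0.0247), Hspa1b (0.0344) and Hspa4l (0.0385). The differences of Hspb8, Hspb1, Dnajb1 and Hspa1b were largest in fiber tracts, those of Dnajc12 in hypothalamus (log2 0.47) and those of Hspe1 and Hspa2 in striatum (0.61 and 0.72; 0.49 and 0.58 without adult section 1). Hspa4l was at 0.36 in thalamus and between -0.07 and 0.17 in the other 5 zones.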

How the results depend on the processing

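No result reversed. Called chaperone genes in whole sections were 2 at P21 and 7 in aged sections; they were 4 and 13 without the 10% detection minimum, 4 and 14 with no filter, and 11 and 26 by adjusted p alone. Equal spots per zone gave 1 at P21, and plain CPM gave 11 in aged sections, adding Dnaja1, Dnajb4, Dnajc30 and Dnajc6. Plain CPM moved the median of all genes in aged sections from -0.11 to 0.00206 and that of the chaperone genes from -0.03 to 0.07. Both medians thus changed sign. The genes called higher and lower went from 421 and 610 to 684 and 328, so that more rose than fell. Equal spots gave 641 and 463, and no detection minimum 4301 and 847, again with more higher than lower. Leaving out 1 section gave 1 to 4 and 7 to 10. Genes called in at least 1 zone were 16 at P21 and 39 in aged sections by adjusted p alone (8 and 24 with the fold minimum), and 4 to 10 and 19 to 24 with 1 section left out. The P21 interaction was passed by 2 genes with plain CPM, 1 with core spots and 7 with zones by panel score, and by 0 to 7 with 1 section left out; the aged interaction by 13 to 24 (26 with all sections). The cause was not tested. The median Moran's I of the chaperone genes was 0.0328 as deposited and 0.0539 recomputed. Replicate numbers did not pair the sections. Deviations correlated at 0.139 between P21 and adult, -0.135 between P21 and aged, and -0.444 between adult and aged. Adult and aged sections of the same number thus tended to deviate in opposite directions. With a replicate block, 3 genes were called at P21 (adding Hspa1b, adjusted p = 0.0437 in edgeR) and 7 in aged sections. Of values for single genes in zones, 925 kept their call and 139 lost it under an alternative. With 1 section left, that section was assumed to vary like the other ages. Slide version and age cannot be told apart in aged vs. adult levels or in the aged interaction.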

Other observations

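Outside the 6 tested zones, small chaperone groups stood apart in the ventricular system and the meninges, whose few spots (23 to 84 per section in the ventricular system, and 121 to 200 in the meninges) were not tested. Dnajb13 encodes an axonemal DnaJ protein of motile cilia and sperm and was below the detection level in whole sections. It was at 16.1 ± 2.97 CPM (SD, n = 6) in the ventricular system, and its mean was at most 2.11 CPM in every other zone. Leading genes of the ventricular zone included the choroid plexus markers Ttr, Clic6 and Folr1. Ciliated ependymal cells were not separated from choroid plexus. Hspb6, a small heat shock protein known from muscle, was at 55.4 ± 7.14 CPM in the ventricular system and at 9.19 to 21.0 CPM as a mean in the other 8 zones. Hspb8 was at 97.7 ± 49.3 CPM in the ventricular system and 84.1 ± 18.1 CPM in the meninges. Hspa12b, known from endothelial cells, was at 28.0 ± 4.28 CPM in the meninges. Hspa1b in the ventricular system was at 9.55 and 9.33 CPM at P21, 8.21 and 6.71 CPM in the adult, and 210 and 32.9 CPM in aged sections, so aged section 1 was again the highest.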
